A study of Mus musculus with 32 samples.

Results

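Barium chloride, injected into a muscle, kills its fibres and spares many of the stem cells that replace them. The comparison described here set tibialis anterior muscle of old C57BL/6J mice collected 7 days after this injury (4 libraries) against the same muscle of old mice with no injury (4 libraries). These are 8 of the 32 libraries of the series and were chosen by their column names, which carry the age, the treatment, the day and the injury. Both groups received vehicle, the carrier given in place of the senolytic compound BI01. No genetic change is named for either group. The labels call the mice old and give no age in weeks or months. Uninjured columns are marked PBS, without saying whether anything was injected, and carry the name of the 35-day set. Injury and collection set therefore cannot be told apart in any value given here. Whether each library is a different animal is not stated, so the p-values measure the spread between samples, part of which may be technical. That spread, within groups, was estimated over all 32 libraries of the series. Table columns carry numbers that are not the replicate numbers of the sample titles, and the libraries are called uninjured 6, 7, 8 and 9 and day 7 libraries 7, 8, 9 and 10. Equal numbers in the 2 groups do not mark the same animal.

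Skeletal muscle rebuilds itself from satellite cells, stem cells that lie against each fibre and carry the transcription factor Pax7. After injury they divide, switch on Myod1 and then Myog, fuse with each other, and form young fibres that first make embryonic and neonatal forms of the contractile proteins before the adult forms replace them. Macrophages clear the dead fibres, and fibro-adipogenic progenitors, the connective tissue cells of muscle, lay down the matrix in which new fibres grow. In old muscle these steps are known to be slower and less complete.

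Total counts were 15404429 to 30439358 in the uninjured libraries and 14129350 to 17979203 in the day 7 libraries. Levels are given in CPM, the count scaled to a fixed library size with the TMM method, always in the order uninjured 6, 7, 8 and 9 and then day 7 libraries 7, 8, 9 and 10. Means are given ± SD (n = 4 in each group). Differences are log2 fold changes of day 7 over uninjured with their standard error (SE) from edgeR's quasi-likelihood test, and adjusted p-values are over all 17121 genes tested (Benjamini and Hochberg). A gene is called where its adjusted p is below 0.05, and a bare number in brackets after a gene is its log2 fold change. The first principal component of log2 CPM over the 8 libraries held 74.9% of the variance and separated the 2 groups. The muscle identity of the samples was plain in its most abundant transcripts. In uninjured muscle the 5 highest genes were Myh4, mt-Co1, Atp2a1, Acta1 and mt-Cytb, and at day 7 they were Myh4, Acta1, mt-Co1, Atp2a1 and Ttn. Of 9 keratin and other epidermal genes that would show skin in the sample, 1 (Krt10) passed the filter on low counts, at 1.34 ± 0.219 CPM and 1.04 ± 0.438 CPM, with no call.

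Several libraries stood apart from their groups. In day 7 library 7, fast fibre genes took 3.93% of all counts, against 14.8%, 14.8% and 18.0% in the other day 7 libraries and 27.0% to 28.0% in uninjured muscle, and matrix genes took 7.17%, against 3.37% to 4.16% in the other day 7 libraries. Day 7 library 10 held the far end of the second component (9.62% of the variance) and the fewest genes with a count (15863). Compared with the other 3 day 7 libraries, its genes of at most 1000 bases were low (median log2 deviation -0.72) and those above 8000 bases high (0.33). Day 7 library 9 deviated in the opposite direction, with 0.65 for genes of at most 1000 bases and -0.23 for those above 8000 bases. RNA quality was not tested. Uninjured library 7 had embryonic muscle genes at levels far above the other uninjured libraries, with Myh3 at 422 CPM against 1.04 to 165 CPM. Values without these libraries are given where they change a result.

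Of 17121 genes tested, 10995 were called (64.2%), 5885 higher at day 7 (34.4%) and 5110 lower (29.8%). Of these, 4712 were at least 2-fold higher (27.5%) and 3138 at least 2-fold lower (18.3%). The 4 day 7 libraries lay wholly above or wholly below the 4 uninjured libraries for 9757 genes (57% of those tested). The median log2 fold change over all genes tested was 0.14. Calls higher made up 53.5% of all calls with TMM scaling and 86.0% with library size alone, which moves that median to 1.15. The counts of gene groups below are to be read against these shares. In bulk tissue, fewer cells of a type and less RNA per cell of that type cannot be told apart.

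**Figure D1:**
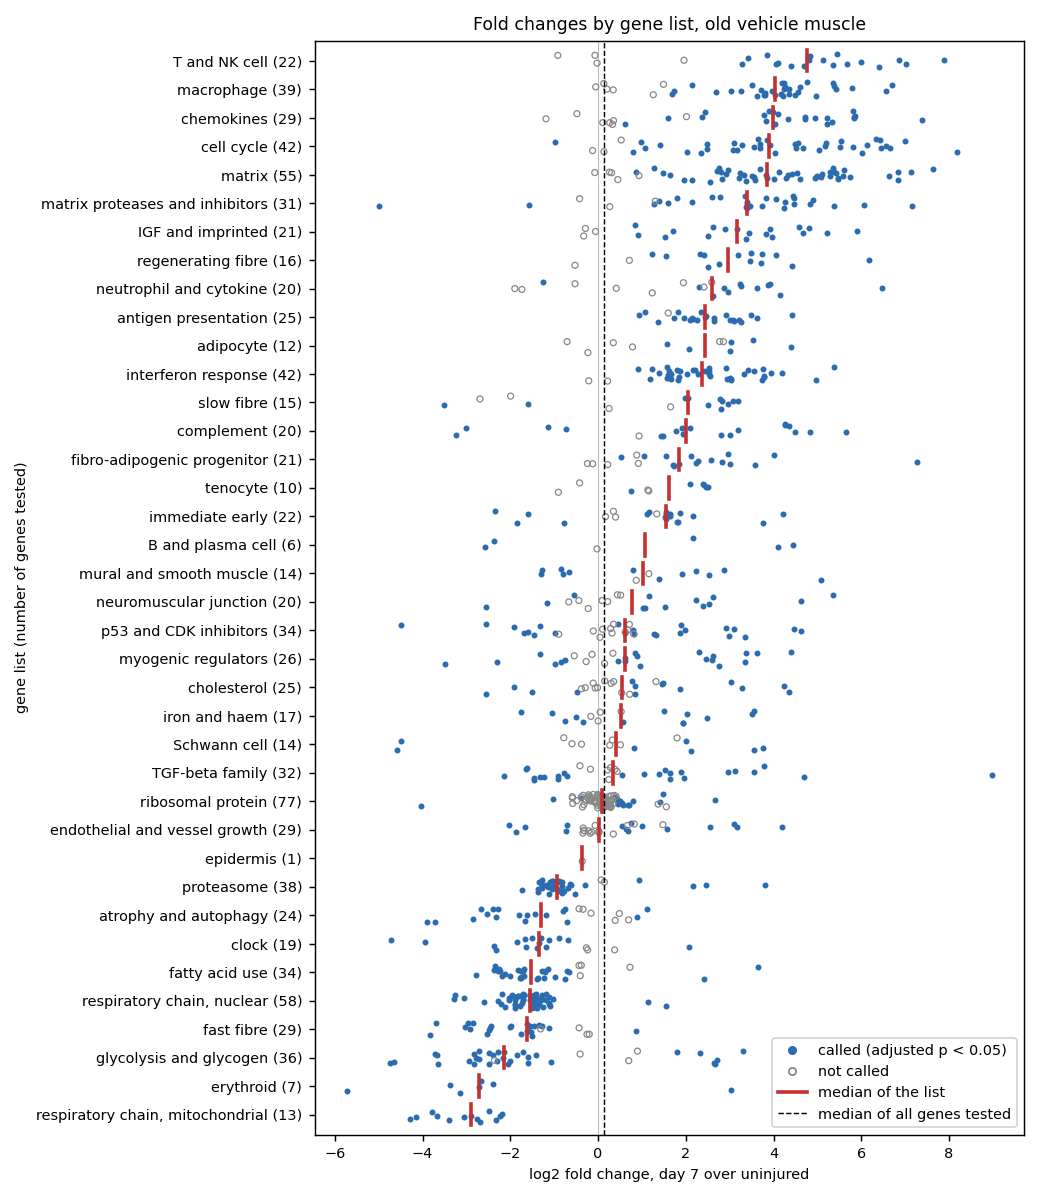
Log2 fold change of day 7 over uninjured (x axis) for the tested members of 38 gene lists (y axis, ordered by median). Each point is a gene, filled where called, the bars mark the list medians and the dashed line marks the median of all genes tested (0.14). Lists of immune cells, matrix and cell division lie on the right, and lists of energy metabolism and the fast fibre on the left.

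Genes of the adult fast fibre fell, with 24 of 29 tested members called lower, 1 called higher and a median log2 fold change of -1.62. Myh4, the myosin heavy chain of the fastest (type 2B) fibres, stood at 89320.2, 96381, 89936 and 87649 CPM in uninjured muscle and 2871, 20070.4, 14473 and 28488 CPM at day 7 (log2 fold change -2.46, SE 0.44, adjusted p = 1.61e-05). All 4 day 7 libraries lay below the uninjured range, and library 7 was the lowest. Acta1, the skeletal muscle actin, fell by 1.27 on the log2 scale from 31443 ± 1945 to 13039 ± 6029 CPM (SE 0.311, adjusted p = 0.000710), and Atp2a1, the calcium pump of the fast sarcoplasmic reticulum, went from 35952 ± 611 to 6374 ± 3467 CPM (log2 fold change -2.50). Pvalb, the calcium buffer parvalbumin of fast fibres, had the largest fall of the list, from 9599, 9432, 10329 and 11227 to 99.2, 628, 1740.4 and 403 CPM (log2 fold change -3.82, SE 0.67, adjusted p = 1.24e-05). Its day 7 values spanned a wide range, with library 7 again lowest. Ttn, which encodes the giant elastic protein titin, fell less (-1.55, adjusted p = 0.000159). The other 2 fast myosins did not pass the test. Myh1, the type 2X myosin, was at 9941, 3687, 5798 and 6376 CPM and then 816, 5862, 6179 and 9566 CPM (log2 fold change -0.20, 95% interval -1.34 to 0.93, adjusted p = 0.763). Myh2, the type 2A myosin, was at 508, 8.76, 13.2 and 17.5 CPM and 23.6, 58.7, 221 and 101 CPM (adjusted p = 0.687), where uninjured library 6 alone held the high value, and without that library it was called higher (2.94, adjusted p = 0.00139). The member that rose, Actn2, encodes the Z-disc alpha-actinin found in all fibre types (0.86). Pvalb had a log2 fold change of -4.76 without day 7 library 9. Actn2 was not called without day 7 libraries 8, 9 or 10 or uninjured libraries 7, 8 or 9 (adjusted p = 0.0578 to 0.162). Acta1 and Actn2 were not called when only the groups compared were fitted (adjusted p = 0.0503 and 0.0889). Acta1 was not called with library size alone (adjusted p = 0.238). Actn2 was not called in limma voom or with no filter on low counts (adjusted p = 0.0852 and 0.0834).

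Among the other large falls were genes of fibre excitability and signalling. The 8 largest falls among called protein-coding genes without overlap that reached a mean of 30 CPM in either group were those of Kcng4, Tmem132b, Scn4b, Mylk4, Cyp4f39, Rasd2, Tspan8 and Dusp26. Kcng4, a modifying subunit of voltage-gated potassium channels, went from 80.5, 51.5, 66.0 and 61.4 CPM to 0.0322, 0, 0.702 and 0 CPM (log2 fold change -8.53, SE 0.90, adjusted p = 7.44e-09), so that the day 7 libraries were close to 0. Scn4b, an auxiliary subunit of sodium channels, went from 795 ± 72.2 to 6.99 ± 5.74 CPM (-6.83). Mylk4, a myosin light chain kinase, went from 2864 ± 321 to 29.6 ± 8.76 CPM (-6.60). The fold changes of the other 5 were -7.63 for Tmem132b, -6.58 for the cytochrome P450 gene Cyp4f39, -6.49 for the small GTPase gene Rasd2, -6.34 for the tetraspanin gene Tspan8 and -6.33 for the phosphatase gene Dusp26. All 8 had adjusted p-values of at most 4.11e-08. A call and a lack of overlap between the groups were conditions of this choice and add no evidence. Cyp4f39 had a log2 fold change of -7.78 without day 7 library 8. Kcng4 had a log2 fold change of -11.72 and Tmem132b one of -8.88 without day 7 library 9.

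The slow fibre list moved the other way, though little of it was the slow myosin itself. Of 15 tested members 9 were called higher and 2 lower, with a median of 2.05. Myh7, the slow myosin heavy chain, rose from 0.210 ± 0.420 to only 1.32 ± 0.405 CPM (2.83, adjusted p = 0.0210). Tnni1, the slow troponin I that young fibres of all types also make, went from 14.4, 85.8, 17.6 and 0.136 to 242, 287, 307 and 166 CPM (log2 fold change 3.08, SE 0.96, adjusted p = 0.00727). Csrp3, a LIM protein of the Z-disc, rose most within the list, from 6.83 ± 6.21 to 62.6 ± 28.9 CPM (3.20). Myl2, the slow regulatory light chain, was at 6.18, 0, 0 and 0 CPM and 0.0322, 0.402, 0.482 and 0 CPM and was not called (adjusted p = 0.169), with all of its uninjured signal in library 6. Mb, which encodes the oxygen carrier myoglobin, fell from 1227 ± 531 to 107 ± 55.4 CPM (log2 fold change -3.52, SE 0.47, adjusted p = 1.63e-07), the largest fall of the list. Myh7 had a log2 fold change of 7.65 without uninjured library 6. Tnni1 had a log2 fold change of 4.57 without uninjured library 7. Myh7 was not called without uninjured libraries 7, 8 or 9 (adjusted p = 0.0580 to 0.0631). Myh7 was not called without day 7 libraries 7 and 10 together (adjusted p = 0.0997). Myh7 was not called in DESeq2 (adjusted p = 0.0775).

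Embryonic and neonatal genes of the new fibre rose, with 14 of 16 tested members called higher, none lower and a median of 2.97. Myh3, the embryonic myosin heavy chain, was at 66.3, 422, 165 and 1.04 CPM in uninjured muscle and 1425, 1871, 1471 and 2614 CPM at day 7 (log2 fold change 3.49, SE 1.02, adjusted p = 0.00439). The groups did not overlap, but the uninjured libraries alone spanned from 1.04 to 422 CPM. Myh8, the neonatal myosin, showed the same picture with 46.8, 225, 67.7 and 10.1 CPM before and 665, 2267, 1770.5 and 2811 CPM after (log2 fold change 4.42, SE 0.64, adjusted p = 8.72e-07). Actc1, the cardiac actin that young skeletal fibres also make, rose from 144 ± 103 to 1881 ± 763 CPM (3.71). Tnnt2, cardiac troponin T, was at 14.1, 108, 23.0 and 2.40 CPM and then 244, 187, 158 and 156 CPM (log2 fold change 2.33, SE 0.79, adjusted p = 0.0125), and uninjured library 7 lay near the day 7 range. Myl4, the embryonic light chain, rose as well (2.50, adjusted p = 0.000152). The fusion proteins of myoblasts rose together. Mymk (myomaker), which prepares the membrane for fusion, went from 6.87, 54.2, 11.9 and 0.452 to 126, 108, 81.5 and 82.8 CPM (log2 fold change 2.42, SE 0.75, adjusted p = 0.00651), and Mymx (myomixer), which opens the fusion pore, from 1.61 ± 1.74 to 15.3 ± 9.55 CPM (3.18). Dcx, the microtubule protein doublecortin, had the largest rise of the list (0.129 ± 0.259 to 12.5 ± 4.83 CPM, 6.18). Actc1 had a log2 fold change of 4.32, Dcx one of 10.85, Myh3 one of 4.57, Myh8 one of 5.50, Myl4 one of 3.48, Mymk one of 4.00, Mymx one of 4.34 and Tnnt2 one of 3.84 without uninjured library 7.

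Per base of deposited gene length, the mix of myosin heavy chains changed in favour of the young forms. Those lengths were 11772 bases for Myh8, 8616 for Myh7 and 6016 to 7137 for the others. They may differ from the lengths of the transcripts made, and the shares depend on them. Taking 6 myosin genes together and dividing each by its length, Myh4 made up 90.0% to 96.0% of the sum in uninjured muscle and 53%, 70.0%, 63.3% and 68.4% in day 7 libraries 7, 8, 9 and 10. Myh3 made up at most 0.418% before injury and 26.1%, 6.48%, 6.39% and 6.23% after it. Myh8 went from at most 0.115% to between 3.45% and 6.27%, and Myh1 from between 3.48% and 9.48% to between 14.2% and 25.6%. At day 7 the adult fast myosin was still the most abundant of these in each library, and library 7 had the highest share of the embryonic form. Of these, Myh3 (chromosome 11, 67078300 to 67102291), Myh2 (chromosome 11, 67171027 to 67197517), Myh1 (chromosome 11, 67200052 to 67224575), Myh4 (chromosome 11, 67238029 to 67260446) and Myh8 (chromosome 11, 67277124 to 67308634) lie next to one another, with the positions of the deposited table (build mm10). Their sequences are similar, and reads shared between them could be split in either direction.

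**Figure D2:**
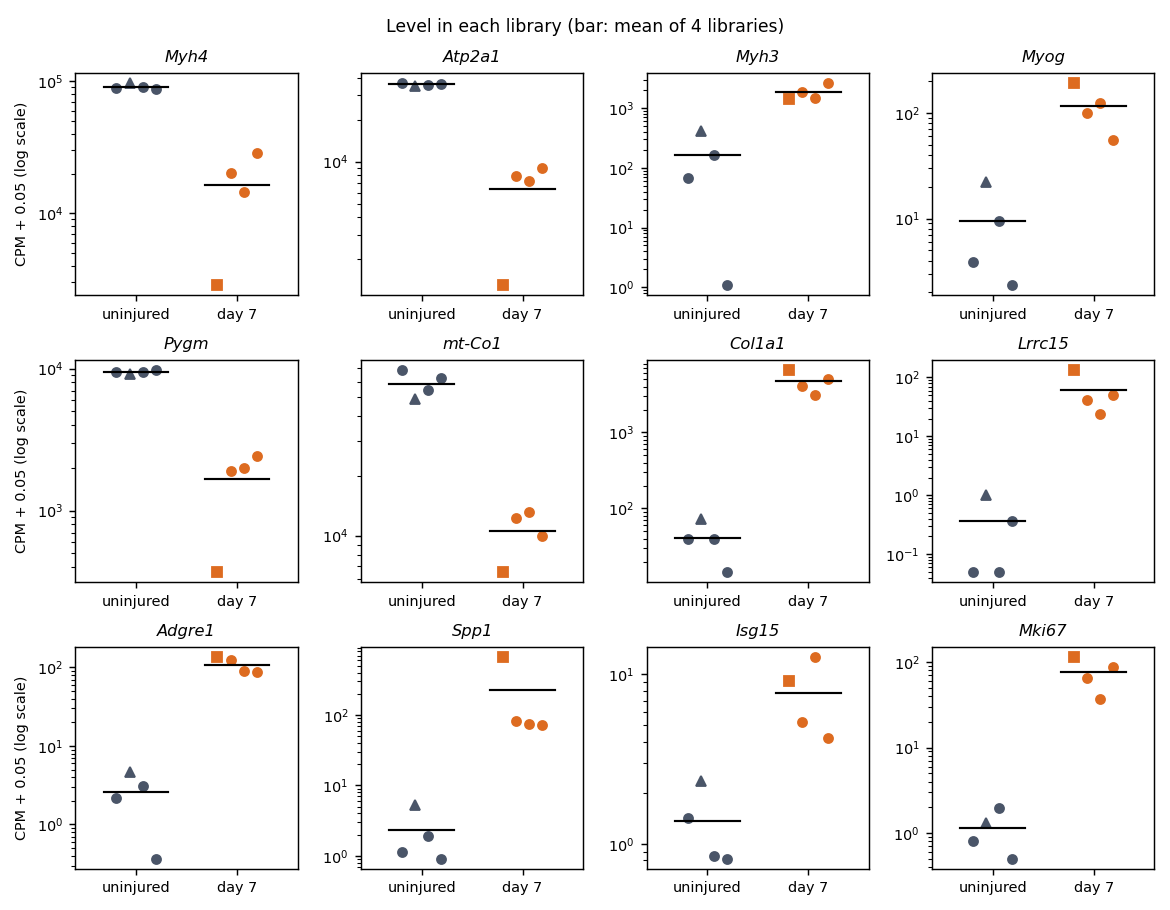
Level of 12 genes in each library (y axis, CPM on a log scale, with 0.05 added so that libraries at 0 appear), with the 4 uninjured libraries on the left and the 4 day 7 libraries on the right of each panel and a bar at the mean. Day 7 library 7 is drawn as a square and uninjured library 7 as a triangle. The square lies below the other day 7 libraries for Myh4 and Pygm, and the triangle above the other uninjured libraries for Myh3 and Myog.

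Of 26 tested regulators of the myogenic lineage, 15 were called higher and 6 lower (median 0.61). Pax7, which marks satellite cells, was at 2.44, 6.21, 3.12 and 2.26 CPM and then 21.9, 16.9, 14.9 and 16.5 CPM (log2 fold change 2.30, SE 0.32, adjusted p = 3.39e-07). Myf5, the factor of activated satellite cells, went from 2.10 ± 0.899 to 13.2 ± 3.96 CPM (2.61). Myog, which drives the myoblast into differentiation, rose most among the muscle transcription factors, from 3.81, 22.3, 9.36 and 2.31 to 191, 99.2, 125 and 55.9 CPM (log2 fold change 3.62, SE 0.62, adjusted p = 1.31e-05). All 4 day 7 libraries lay above all 4 uninjured ones. Myod1 rose less, from 45.4 ± 9.98 to 83.4 ± 13.1 CPM (0.88, adjusted p = 0.000285). Factors of the mature fibre were lower. Mstn, the growth inhibitor myostatin, fell from 63.2 ± 7.00 to 13 ± 7.71 CPM (-2.29), and Myf6, the late myogenic factor, fell by 0.76 on the log2 scale (adjusted p = 0.0387). Pax3 had the largest fall of the list (2.44 ± 0.363 to 0.207 ± 0.222 CPM, -3.48) and Megf10, a receptor of satellite cells, the largest rise (1.32 ± 0.486 to 27.9 ± 6.93 CPM, 4.39). Calcr, a receptor of quiescent satellite cells, stayed below 1 CPM in both groups (0.15, adjusted p = 0.882). Pax3 had a log2 fold change of -4.43 without day 7 library 8. Myog had a log2 fold change of 4.55 without uninjured library 7. Myf6 was not called without day 7 libraries 7 or 10 or uninjured libraries 7 or 9 (adjusted p = 0.0746 to 0.156). Myf6 was not called without day 7 libraries 7 and 10 together (adjusted p = 0.521). Myf6 was not called with RLE size factors or in DESeq2 or with no filter on low counts or when only the groups compared were fitted (adjusted p = 0.0666, 0.0534, 0.0988 and 0.0849).

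Genes for the use of glucose and glycogen fell, with 26 of 36 tested members called lower and 6 higher (median -2.15). Pygm, the muscle enzyme that breaks down glycogen, went from 9438, 9183, 9467 and 9732 to 371, 1911, 1989.8 and 2428 CPM (log2 fold change -2.50, SE 0.37, adjusted p = 6.62e-07). Pfkm, the muscle form of phosphofructokinase and a control point of glycolysis, went from 5884 ± 518 to 896 ± 416 CPM (-2.71). Falls were also called for the muscle enolase Eno3 (-1.85), lactate dehydrogenase A, Ldha (-1.70), hexokinase 2, Hk2 (-2.28), and Slc2a4, the insulin-regulated glucose transporter GLUT4 (-3.64). Fbp2, the muscle form of a fructose bisphosphatase, had the largest fall of the list, from 52.0, 52.2, 42.3 and 50.8 to 0.870, 1.79, 2.94 and 1.88 CPM (log2 fold change -4.74, SE 0.40, adjusted p = 7.78e-11). Slc2a4 fell from 687, 541, 654 and 653 CPM to 15.6, 54.1, 92.9 and 40.8 CPM, with no overlap. Gapdh was not called, at 824, 803, 44.8 and 279 CPM and 20.8, 28.1, 310.4 and 19.9 CPM (adjusted p = 0.0847). Gapdh has many near-identical pseudogenes, and its counts are uncertain. Gapdh was called without day 7 library 9 (adjusted p = 0.00737). Gapdh was called in DESeq2 or in limma voom (adjusted p = 0.0403 and 0.0355).

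The 6 members that rose, Pygl, Pfkp, Pfkl, Pgam1, Eno1 and Hk1, were broadly expressed counterparts of the muscle forms of 5 enzymes, and those muscle forms fell. These pairs were set side by side after their values were seen, and each kept its opposite directions with library size alone. For glycogen phosphorylase, Pygm fell and the liver form Pygl rose from 2.82, 2.55, 0.720 and 0.904 to 24.1, 13.7, 12.5 and 18.9 CPM (log2 fold change 3.29, SE 0.42, adjusted p = 6.22e-08). For phosphofructokinase, Pfkm fell while the platelet form Pfkp (2.63) and the liver form Pfkl (1.79) rose. For phosphoglycerate mutase, the muscle form Pgam2 fell from 1563 ± 202 to 296 ± 160.1 CPM (-2.40), and Pgam1 rose from 8.65 ± 0.918 to 56.8 ± 52.5 CPM (2.72). For enolase, Eno3 fell and Eno1 rose from 123 ± 46.7 to 611 ± 183 CPM (2.31). For hexokinase, Hk2 fell and Hk1 rose from 8.89 ± 2.03 to 56.5 ± 13.4 CPM (2.66). Ribosomal proteins held one more pair, Rpl3l, the form made in striated muscle, which went from 543, 418, 462 and 500.4 to 3.93, 32.4, 51.8 and 29.4 CPM (log2 fold change -4.03, SE 0.51, adjusted p = 9.43e-08), and the common Rpl3, which went from 56.4 ± 22.5 to 360.4 ± 65.5 CPM (2.67). Pgam1 had a log2 fold change of 1.81 without day 7 library 7.

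The respiratory chain fell in both genomes. All 13 genes of the mitochondrial genome were called lower, with a median of -2.89. mt-Co1, a core subunit of cytochrome oxidase, went from 68503, 48938, 54258 and 62825 to 6558, 12268, 13154 and 9969 CPM (log2 fold change -2.48, SE 0.28, adjusted p = 4.32e-09). mt-Nd1 (-2.89), mt-Cytb (-2.69) and mt-Atp6 (-3.05), subunits of complexes 1, 3 and 5, fell as well, and mt-Atp8 fell most (-4.30). Of 58 nuclear genes of the chain, 56 were called lower and 2 higher (median -1.55). Cox4i1, another subunit of cytochrome oxidase, went from 601 ± 76.7 to 246 ± 79.7 CPM (-1.29), Atp5a1 of the ATP synthase from 2545 ± 349.9 to 918 ± 304 CPM (-1.47) and Sdha of complex 2 from 1009.8 ± 159 to 308 ± 117 CPM (-1.71). The 2 that rose were again the common forms of subunits that have a muscle form. Cox6a1 went from 16.2, 23.5, 16.1 and 14.6 to 81.1, 38.6, 62.4 and 23.5 CPM (log2 fold change 1.54, SE 0.25, adjusted p = 2.54e-06), against 856, 631, 651 and 689 to 36.0, 62.7, 188 and 53 CPM for the muscle form Cox6a2 (log2 fold change -3.06, SE 0.44, adjusted p = 6.25e-07). Cox8a rose by 1.14 while the muscle form Cox8b fell (-3.26). With library size alone 34 of the nuclear genes were called lower. The third such subunit did not follow, since both the muscle form Cox7a1 (-3.29) and the common form Cox7a2 (-1.18) fell. Many of these transcripts are short, the class that was low in day 7 library 10 and high in library 9, and without library 10 the nuclear list had 56 called lower with a median of -1.54. Cox6a2 had a log2 fold change of -3.81, Cox7a1 one of -4.42, Cox8b one of -4.72 and mt-Atp6 one of -3.68 without day 7 library 9. Cox4i1 and Cox7a2 were not called with library size alone (adjusted p = 0.191 and 0.510).

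**Figure D3:**
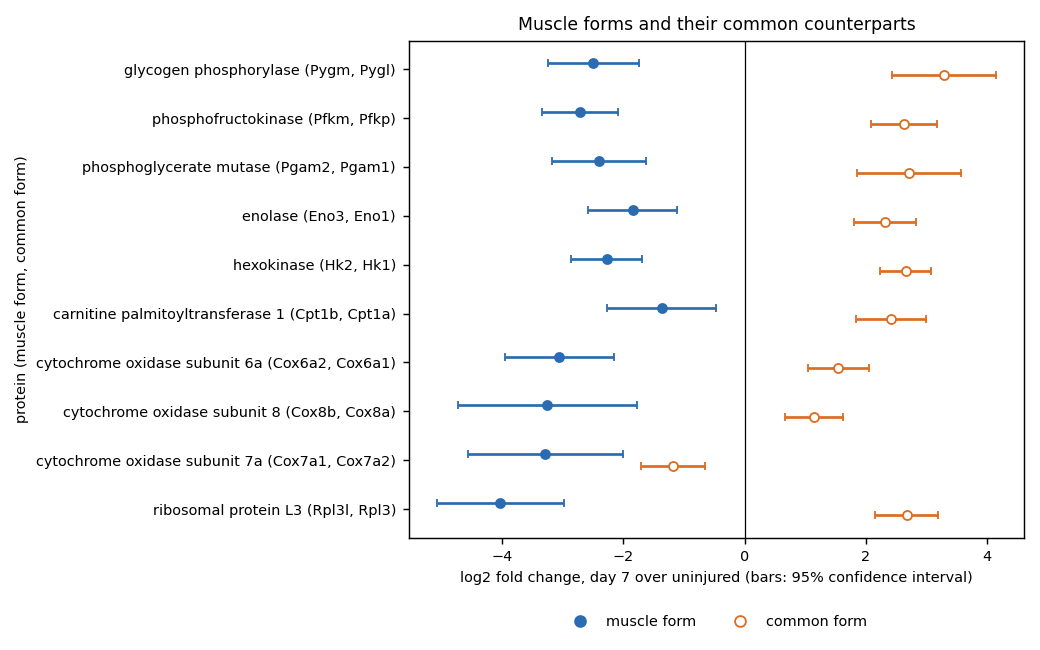
Log2 fold change of day 7 over uninjured (x axis, with 95% confidence intervals) for pairs of a muscle form (filled circles) and its broadly expressed counterpart (open circles) of the same protein (y axis). In 9 of 10 pairs the muscle form is below 0 and its counterpart above it, and both fell for subunit 7a of cytochrome oxidase. The pairs were put together after their values were seen, so this count is a description and no test.

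Genes for burning fatty acids were also lower, with 28 of 34 tested members called lower and 2 higher (median -1.54), counts that became 14 and 6 with library size alone. Acacb, which makes the malonyl-CoA that restrains mitochondrial uptake of fatty acids, fell most (469 ± 34.0 to 68.7 ± 42.5 CPM, -2.77). Cpt1b, the muscle gate for that uptake, went from 3.80 ± 1.28 to 1.47 ± 0.788 CPM (-1.37), while its liver counterpart Cpt1a rose from 6.90 ± 2.04 to 36.8 ± 9.51 CPM (2.41). Falls were called for the fatty acid carrier Fabp3 (-1.78), the uncoupling protein Ucp3 (-2.27), Ppargc1a, a coactivator of mitochondrial genes (-1.29), and the uptake receptor Cd36 (-0.76). Ucp2, the uncoupling protein of immune and other cells, had the largest rise, from 7.78, 19.8, 5.84 and 5.47 to 168, 118, 97.5 and 111 CPM (log2 fold change 3.65, SE 0.39, adjusted p = 5.36e-09). Pdk4, the kinase that shuts glucose carbon out of mitochondria, was at 130.2, 258, 289 and 309.8 CPM and then 23.6, 95.9, 42.0 and 56.1 CPM (log2 fold change -2.18, SE 0.60, adjusted p = 0.00230). Ucp2 had a log2 fold change of 4.28 without uninjured library 7. Cpt1b and Pdk4 were not called without day 7 libraries 7 and 10 together (adjusted p = 0.121 and 0.0536). Cpt1b, Fabp3, Pdk4 and Ppargc1a were not called with library size alone (adjusted p = 0.429, 0.0536, 0.0531 and 0.333).

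Genes of the extracellular matrix rose, with 50 of 55 tested members called higher, none lower and a median of 3.85. Col1a1, the main chain of fibrillar collagen 1, went from 39.7, 71.7, 39.2 and 14.6 CPM to 6586, 4112, 3130.3 and 4993 CPM (log2 fold change 6.83, SE 0.57, adjusted p = 3.06e-11). Every day 7 library was far above every uninjured one, with library 7 the highest. Col3a1, of the finer collagen 3 fibrils, rose from 100.5 ± 58.4 to 4453 ± 577 CPM (5.47). Fn1 (fibronectin), the early scaffold of a wound, rose from 68.4, 51.0, 20.1 and 16.4 to 2491, 1046, 985 and 1898 CPM (log2 fold change 5.36, SE 0.58, adjusted p = 6.05e-09). Lox, the oxidase that crosslinks collagen and elastin, rose by 5.47, Sparc, a collagen-binding matrix protein, by 3.55, Col12a1, which coats fibrils, by 6.63 and Eln (elastin) by 2.72. Col4a1, of the basement membrane around each fibre, rose by 2.55, less than the fibrillar collagens. Fbn2, a fibrillin best known from developing tissue, had the largest rise of the list (0.0897 ± 0.132 to 22.6 ± 10.2 CPM, 7.64). Of the 8 largest rises chosen in the same way, Col1a1 and Postn were members of this list, and the other 6 were not. Ltbp2, which binds elastic fibres, rose from 0.0763, 0.319, 0.0800 and 0.136 to 152, 83.0, 55.9 and 76.5 CPM (log2 fold change 8.98, SE 0.69, adjusted p = 1.85e-11), and Tnc, the matrix protein tenascin C of injured tissue, from 3.20, 2.59, 0.400 and 0.0904 to 1292, 275, 148 and 467 CPM (log2 fold change 8.44, SE 1.10, adjusted p = 2.43e-07). The others were Postn (periostin, 7.12), Sfrp2, a secreted Wnt modulator (7.47), Cthrc1, a marker of matrix-producing fibroblasts (7.45), Lrrc15 (7.26) and Adam12 (7.17). Sfrp2 was listed at 1.14, 0.597, 0 and 0 CPM before injury and 85.5, 74.8, 72.4 and 67.8 CPM after it, which makes it nearly absent before and even across the 4 libraries after. Lrrc15 had a log2 fold change of 6.56 and Tnc one of 7.56 without day 7 library 7. Sfrp2 had a log2 fold change of 8.24 without uninjured library 6. Cthrc1 had a log2 fold change of 8.17, Fbn2 one of 9.66, Lox one of 6.05, Lrrc15 one of 8.70, Ltbp2 one of 9.69 and Postn one of 7.87 without uninjured library 7.

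Enzymes that cut the matrix rose with it, with 26 of 31 tested proteases and inhibitors called higher and 2 lower (median 3.39). Mmp14, a membrane collagenase that activates Mmp2, rose from 16.5 ± 6.86 to 364 ± 69.7 CPM (4.46), and Mmp2 itself from 19.5 ± 5.88 to 207 ± 52.3 CPM (3.41). Adam12, a membrane protease of fusing myoblasts and activated fibroblasts, went from 0.229, 0.876, 0.640 and 0.407 to 128, 58.2, 47.3 and 94.4 CPM (log2 fold change 7.17, SE 0.57, adjusted p = 2.77e-11). Mmp12, the macrophage elastase, was uneven at 0.305, 2.35, 0.880 and 14.2 CPM before and 141, 24.9, 8.46 and 15.6 CPM after injury (log2 fold change 3.36, SE 1.19, adjusted p = 0.0161). Most of its day 7 mean came from library 7. Mmp9, a gelatinase of leukocytes, showed the same pattern (4.84). The inhibitors divided. Timp1, the inducible form, rose from 1.28 ± 1.28 to 29.4 ± 26.3 CPM (4.45), while Timp4 fell from 19.5, 8.84, 11.5 and 32.2 to 0.516, 0.402, 1.32 and 0 CPM (log2 fold change -5.00, SE 0.62, adjusted p = 6.43e-08), the largest fall of the list. Mmp12 had a log2 fold change of 1.82, Mmp9 one of 3.55 and Timp1 one of 3.60 without day 7 library 7. Timp4 had a log2 fold change of -5.75 without day 7 library 9. Mmp9 had a log2 fold change of 5.52 without uninjured library 6. Timp1 had a log2 fold change of 5.57 without uninjured library 7. Mmp12 had a log2 fold change of 5.19 without uninjured library 9. Mmp12 was not called without day 7 library 7 (adjusted p = 0.177). Mmp12 was not called without day 7 libraries 7 and 10 together (adjusted p = 0.233). Mmp12 was not called in limma voom (adjusted p = 0.0655).

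Fibro-adipogenic progenitor genes were higher in 16 of 21 tested members, with none called lower (median 1.84). Pdgfra, the receptor that defines these cells, rose from 10.6, 10.4, 8.08 and 6.06 to 47.8, 54.6, 45.4 and 61.7 CPM (log2 fold change 2.58, SE 0.24, adjusted p = 1.61e-10). Lrrc15, a marker of activated fibroblasts, rose from 0, 0.956, 0 and 0.316 to 133, 41.5, 23.6 and 49.7 CPM (log2 fold change 7.26, SE 0.94, adjusted p = 2.04e-07). Meox1, a transcription factor of activated fibroblasts (3.00), Gdf10, a secreted factor of these progenitors (2.13), and the surface protease gene Fap (2.82) rose as well. Pi16, a marker of the resting connective tissue state, was not called, at 28.5, 14.3, 5.28 and 5.38 CPM and 3.68, 20.3, 47.3 and 26.8 CPM (adjusted p = 0.329), and the low value was that of library 7. Of 32 tested genes of TGF-beta signalling, which drives matrix production, 14 were called higher and 11 lower (median 0.33), and with library size alone 2 were called lower. The ligand gene Tgfb1 rose from 4.50, 13.6, 6.00 and 6.28 to 70.6, 70.0, 51.9 and 75.3 CPM (log2 fold change 3.12, SE 0.33, adjusted p = 2.97e-09), the activin subunit Inhba by 3.78, its antagonist Fst (follistatin) by 1.90, and the target and matricellular gene Ctgf by 2.97. The largest fall was that of Smad6, an inhibitor within the pathway (16.6 ± 1.88 to 3.74 ± 0.255 CPM, -2.14). Ctgf had a log2 fold change of 2.14, Inhba one of 2.28 and Lrrc15 one of 6.56 without day 7 library 7. Lrrc15 had a log2 fold change of 8.70 without uninjured library 7. Inhba was not called without day 7 libraries 7 and 10 together (adjusted p = 0.0899). Pi16 was called with library size alone (adjusted p = 0.0347).

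Macrophage genes rose in 33 of 39 tested members, with none called lower and a median of 4.04. Adgre1, which encodes the macrophage antigen F4/80, went from 2.14, 4.62, 3.04 and 0.316 to 136, 123, 90.0 and 86.1 CPM (log2 fold change 5.42, SE 0.56, adjusted p = 3.78e-09), with no overlap. Cd68 of macrophage lysosomes rose by 4.20, C1qa, a complement subunit made by macrophages, by 4.34, and Lgals3 (galectin 3) by 2.15. The mannose receptor Mrc1, a marker of repair macrophages, rose from 6.48, 7.05, 3.36 and 2.62 to 151, 133, 95.3 and 101 CPM (log2 fold change 4.61, SE 0.43, adjusted p = 5.82e-10). Ccr2, the receptor of monocytes that enter from blood, rose from 4.56 ± 2.81 to 51.9 ± 5.45 CPM (3.50). Trem2 (4.16) and Gpnmb (3.79), genes of macrophages that take up lipid and debris, rose as well. Markers of resident macrophages did not pass the test, with Lyve1 at 0.861 ± 0.611 and 2.01 ± 1.42 CPM (adjusted p = 0.204) and Cd163 at 8.83 ± 2.72 and 10.1 ± 2.59 CPM (adjusted p = 0.652). The secreted protein gene Spp1 (osteopontin) rose from 1.07, 5.30, 1.84 and 0.859 to 667, 83.4, 75.1 and 72.6 CPM (log2 fold change 6.56, SE 1.16, adjusted p = 2.22e-05). Arg1 (arginase 1), which had the largest rise of the list, went from 0.0763, 0.119, 0.160 and 0 to 33.8, 0.329, 1.40 and 1.41 CPM (log2 fold change 6.69, SE 1.71, adjusted p = 0.00137). For both, library 7 held most of the day 7 signal. Macrophage genes together took 1.54%, 0.840%, 0.939% and 0.444% of all counts in day 7 libraries 7, 8, 9 and 10 and 0.0665% to 0.122% in uninjured muscle. Arg1 had a log2 fold change of 3.53 and Spp1 one of 5.01 without day 7 library 7. C1qa had a log2 fold change of 5.21, Cd68 one of 5.04, Gpnmb one of 4.43, Lgals3 one of 3.41, Spp1 one of 7.53 and Trem2 one of 5.52 without uninjured library 7. Arg1 was not called without day 7 libraries 7 and 10 together (adjusted p = 0.111). Arg1 was not called in limma voom (adjusted p = 0.0685). Cd163 and Lyve1 were called with library size alone (adjusted p = 0.00585 and 0.0195).

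Genes of acute inflammation were at low levels. Of 20 tested genes of neutrophils and cytokines, 11 were called higher and 1 lower (median 2.61). The neutrophil gene S100a8 was at 2.29, 0.438, 0.0800 and 2.12 CPM and 0.580, 0.548, 0.307 and 0 CPM (adjusted p = 0.117). The early cytokines Il1b (0.329 ± 0.214 to 1.34 ± 0.897 CPM, adjusted p = 0.0520) and Il6 (0.0764 ± 0.107 to 0.497 ± 0.346 CPM, adjusted p = 0.0680) were not called, and 3 further neutrophil genes (Cxcr2, Retnlg and Ly6g) did not pass the filter on low counts. Tnf rose to only 1.07 ± 0.925 CPM (3.86). Il10, an anti-inflammatory cytokine, had no count in any uninjured library and 1.10, 0.402, 0.702 and 0.141 CPM at day 7, at least 15.2-fold higher taking 3 counts over the group as a floor (adjusted p = 0.000778). Il15, a cytokine made by muscle fibres, fell from 5.74 ± 3.14 to 2.38 ± 0.397 CPM (-1.26). Of 29 tested chemokines and their receptors, 22 were called higher and none lower (median 3.98). Ccl8, which draws monocytes, rose from 0.534, 1.47, 0.320 and 0 to 34.6, 18.8, 84.4 and 5.46 CPM (log2 fold change 5.82, SE 0.91, adjusted p = 3.72e-06) and Ccl2, the main ligand of Ccr2, from 0.458, 0.358, 0.400 and 0.226 to 27.2, 1.97, 5.22 and 3.34 CPM (log2 fold change 4.73, SE 0.88, adjusted p = 2.96e-05). Cxcl9 (4.04) and Cxcl10 (2.37), ligands induced by interferon, rose, and Cxcl12, which is made by stromal cells, rose by 0.62. Cxcl13, which draws B cells, was at 0.436 ± 0.547 and 1.73 ± 0.907 CPM with an adjusted p of 0.0750. Cxcl5 had no count in the uninjured libraries and a day 7 mean of 1.10 ± 1.52 CPM, at least 30.6-fold higher. Ccl2 had a log2 fold change of 3.29, Cxcl5 one of 5.76 and Tnf one of 3.20 without day 7 library 7. Ccl8 had a log2 fold change of 4.96 without day 7 library 9. Ccl8 had a log2 fold change of 7.18 and Cxcl9 one of 5.07 without uninjured library 7. Cxcl10 had a log2 fold change of 3.91 and Tnf one of 5.29 without uninjured library 9. Il15 was not called without uninjured library 6 (adjusted p = 0.0570). Il15 was not called without day 7 libraries 7 and 10 together (adjusted p = 0.0504). Tnf was not called without day 7 library 7 (adjusted p = 0.0515). Cxcl13 was called without uninjured library 6 (adjusted p = 0.0184). Il1b was called without day 7 library 10 or uninjured library 7 (adjusted p = 0.0290 to 0.0458). Il6 was called without day 7 library 8 or uninjured library 9 (adjusted p = 0.0319 to 0.0393). Il15 was not called with library size alone (adjusted p = 0.635). Tnf was not called in limma voom (adjusted p = 0.0525). Cxcl13, Il1b and Il6 were called with library size alone (adjusted p = 0.00858, 0.00382 and 0.0105). Cxcl13 and Il1b were called in limma voom (adjusted p = 0.0317 and 0.0387). Il1b was called with RLE size factors or in DESeq2 or with a filter of 1 CPM (adjusted p = 0.0412, 0.0319 and 0.0453). Cxcl13 was called when only the groups compared were fitted (adjusted p = 0.0489).

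Most T and NK cell genes rose from almost nothing to low levels, and B cell genes did not move one way. Of 22 tested genes of T and NK cells, 18 were called higher and none lower (median 4.76). Cd4 went from 0.305, 0.0796, 0 and 0.0904 to 4.67, 8.0, 10.4 and 0.941 CPM (log2 fold change 5.66, SE 0.71, adjusted p = 3.77e-08), Cd8a from 0.458, 0.159, 0.160 and 0 to 1.26, 3.65, 4.78 and 2.59 CPM (log2 fold change 4.06, SE 0.94, adjusted p = 0.000415), and the NK receptor Ncr1 from 0.0580 ± 0.0733 to 2.56 ± 1.16 CPM (5.36). Macrophages can carry Cd4 too, so it is not a marker of T cells alone. Gzmb (granzyme B) of killer cells had 2 counts over the uninjured libraries and 124 at day 7, a ratio of 44.1 (exact 95% interval 11.9 to 368, counting error only), and Klrb1c, another NK receptor, had no count in uninjured muscle and 1.29, 1.39, 3.20 and 0.376 CPM at day 7, at least 37.7-fold higher. The T cell receptor subunit Cd3e was at 2.52, 2.19, 2.08 and 1.08 CPM and 0.999, 2.52, 2.76 and 1.18 CPM with no call (adjusted p = 0.921), and neither was Foxp3, which marks regulatory T cells (0.458 ± 0.148 and 0.448 ± 0.152 CPM, adjusted p = 0.980). B cell markers were at the limit, with Ms4a1 and Cd79a both removed by the filter on low counts. Of 6 tested B and plasma cell genes, 3 were called higher and 2 lower, and the list took 0.00837% to 0.0130% of all counts in the uninjured libraries and 0.00359% to 0.00771% in the day 7 libraries, without overlap. Fcrla had the largest rise, with 2 counts before and 72 after, a ratio of 25.6 (exact 95% interval 6.83 to 215). Jchain, the joining chain of secreted antibodies, fell from 1.05 ± 1.64 to 0.180 ± 0.194 CPM (-2.57). Jchain had a log2 fold change of -3.22 and Klrb1c one of 7.26 without day 7 library 9. Cd4 had a log2 fold change of 6.38, Cd8a one of 4.82 and Ncr1 one of 6.04 without uninjured library 6. Jchain had a log2 fold change of -0.58 without uninjured library 9. Jchain was not called without day 7 libraries 7, 8 or 10 or uninjured library 9 (adjusted p = 0.0576 to 0.692). Jchain was not called without day 7 libraries 7 and 10 together (adjusted p = 0.302). Jchain was not called with library size alone or with RLE size factors or in limma voom or with no filter on low counts (adjusted p = 0.185, 0.0560, 0.212 and 0.112).

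Antigen presentation rose almost as a block, with 24 of 25 tested members called higher and none lower (median 2.43). Cd74, the chaperone of MHC class II, went from 57.8, 119, 48.3 and 19.7 to 334, 579, 825 and 364 CPM (log2 fold change 3.10, SE 0.44, adjusted p = 6.27e-07) and the class II chain H2-Aa from 25.6 ± 18.2 to 216 ± 108 CPM (3.08). The class I chain H2-K1 rose by 1.83, and Psmb8, a subunit of the immunoproteasome that cuts peptides for class I, by 2.46. Reads of H2 genes can be shared between paralogs. Dendritic cells had their own signal, with Xcr1 of the cross-presenting subset at 0.305, 0.438, 0.720 and 0.814 CPM and then 1.61, 2.59, 2.37 and 4.42 CPM (log2 fold change 2.25, SE 0.64, adjusted p = 0.00279) and Flt3, the growth factor receptor of dendritic cells, with the largest rise of the list (0.159 ± 0.173 to 3.25 ± 0.844 CPM, 4.42). Of 20 tested complement genes, 15 were called higher and 4 lower (median 2.01). C3 rose from 31.3 ± 15.9 to 117 ± 61.0 CPM (1.91) and C4b from 7.63 ± 5.16 to 69.7 ± 37.9 CPM (3.20). The receptor C5ar1 rose most (5.66), and Clu (clusterin), which blocks the membrane attack complex, fell most, from 59.2, 62.6, 53.2 and 56.8 to 4.67, 5.95, 9.74 and 4.37 CPM (log2 fold change -3.23, SE 0.28, adjusted p = 5.34e-11). Flt3 had a log2 fold change of 5.21 without uninjured library 8.

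Genes induced by interferon rose in 40 of 42 tested members, with none called lower and a median of 2.36. Interferon binds its receptor and sends transcription factors to the interferon-stimulated response element, and many of these genes carry that element near their starts. Isg15, a ubiquitin-like protein, went from 1.37, 2.31, 0.80 and 0.769 to 9.09, 5.15, 12.6 and 4.19 CPM (log2 fold change 2.53, SE 0.48, adjusted p = 3.07e-05), Ifit1, which binds foreign RNA, from 2.75, 6.37, 2.88 and 2.53 to 10.8, 30.6, 19.3 and 26.4 CPM (log2 fold change 2.56, SE 0.40, adjusted p = 1.92e-06), and Irf7, the factor that amplifies the response, from 2.82, 10.6, 3.36 and 2.35 to 39.2, 36.5, 77.7 and 42.6 CPM (log2 fold change 3.32, SE 0.48, adjusted p = 9.66e-07). The groups did not overlap for any of these, and the list took 0.146% to 0.165% of all counts at day 7, against 0.0132% to 0.0261% in uninjured muscle. The GTPase gene Gbp2 rose by 1.67 and Rsad2, the antiviral enzyme viperin, by 1.61. Mx1, another antiviral GTPase, had the largest rise of the list (0.270 ± 0.191 to 12 ± 2.74 CPM, 5.38). The interferon gene Ifnb1 itself was removed by the filter on low counts. Irf7 had a log2 fold change of 4.11 and Mx1 one of 6.06 without uninjured library 7.

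The element was looked for on either strand as GAAA, any 2 bases and GAAA in the 250 bases before the start of each gene, in RefSeq promoter sequences of build GRCm38.p6. It was present in 14 of 29 interferon list members with a promoter in the table (48.3%) and in 402 of all 11906 tested genes with one (3.38%). Within 100 bases of the start the counts were 10 members (34.5%) and 150 genes (1.26%). A match is a description of letters and shows neither binding nor a cause. Upstream stretches are shown for 4 of the genes named above, 5′ to 3′ on the gene's strand, with each match in capitals, so that the spacing of the element and its distance to the start can be read. Where the match lies on the opposite strand, the capitals hold TTTC in place of GAAA. Isg15 (chr4:156200845-156200914, minus strand, 96 to 27 bases before the start) holds 3 overlapping matches. Ifit1 (chr19:34640774-34640843, plus strand, 115 to 46 bases before) holds 2. Gbp2 (chr3:142620574-142620643, plus strand, 89 to 20 bases before) and Rsad2 (chr12:26456533-26456602, minus strand, 150 to 81 bases before) hold 1 each. The listed promoter of Irf7 held none.
Isg15: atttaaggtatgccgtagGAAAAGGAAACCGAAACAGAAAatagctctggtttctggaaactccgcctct
Ifit1: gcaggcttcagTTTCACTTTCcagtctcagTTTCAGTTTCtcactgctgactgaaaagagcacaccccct
Gbp2: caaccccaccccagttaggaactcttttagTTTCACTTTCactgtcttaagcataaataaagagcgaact
Rsad2: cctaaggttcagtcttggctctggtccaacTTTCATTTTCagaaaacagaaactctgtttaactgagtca

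Genes of the cell cycle rose in 38 of 42 tested members, with 1 called lower (median 3.89). Mki67, present in dividing cells, went from 0.763, 1.27, 1.92 and 0.452 to 114, 65.3, 36.6 and 86.7 CPM (log2 fold change 6.14, SE 0.68, adjusted p = 1.38e-08). Cdk1, the kinase that starts mitosis, went from 0.229, 0.637, 0.240 and 0 to 31.9, 6.69, 9.17 and 7.24 CPM (log2 fold change 5.53, SE 0.83, adjusted p = 1.42e-06), and its partner Ccna2 from 0.662 ± 0.474 to 22.9 ± 14.7 CPM (5.19). Ccnb1, the cyclin of mitosis, had the largest rise of the list. Ccnd1, the cyclin that answers growth factors, rose by 3.28 and Pcna, the sliding clamp of DNA replication, by 0.81. Mcm2, a subunit of the replicative helicase, was at 14.3, 12.8, 16.6 and 15.2 CPM and 34.9, 17.9, 17.8 and 14 CPM with no call (adjusted p = 0.0567). Aurka was the member called lower (14.8 ± 1.34 to 7.48 ± 5.19 CPM, -0.98). Cell cycle genes took 0.274% of the counts in day 7 library 7, 0.0830% to 0.103% in the other day 7 libraries and 0.0140% to 0.0153% in uninjured muscle. Aurka had a log2 fold change of -1.59 and Cdk1 one of 4.69 without day 7 library 7. Cdk1 had a log2 fold change of 6.63 without uninjured library 7. Aurka was not called without day 7 libraries 9 or 10 (adjusted p = 0.0653 to 0.0730). Pcna was not called without day 7 library 7 (adjusted p = 0.155). Mcm2 was called without day 7 libraries 8, 9 or 10 (adjusted p = 0.0177 to 0.0474). Pcna was not called when only the groups compared were fitted (adjusted p = 0.0559). Mcm2 was called with library size alone or with RLE size factors or in DESeq2 (adjusted p = 1.18e-05, 0.0269 and 0.0247).

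Promoters of cell cycle genes often carry the cell cycle homology region, searched as TTTGAA, and CCAAT boxes. TTTGAA was found on either strand within 250 bases before the start of 9 of 32 members with a promoter in the table (28.1%) and 13.2% of all tested genes. Within 100 bases it was found in 8 members (25%) and 4.22% of all genes. CCAAT was found within 250 bases in 25 members (78.1%) and 39.6% of all genes, and within 100 bases in 21 members (65.6%) and 25.2% of all genes. Stretches around the match nearest to the start are shown for Mki67 (chr7:135716442-135716507, minus strand, 128 to 63 bases before the start), Cdk1 (chr10:69352913-69352957, minus strand, ending 1 base before the start) and Mcm2 (chr6:88898815-88898880, minus strand, 100 to 35 bases before), with TTTGAA in capitals. Mcm2 shares the letters with the other 2 although its level did not pass the test, and the listed promoter of Pcna held none.
Mki67: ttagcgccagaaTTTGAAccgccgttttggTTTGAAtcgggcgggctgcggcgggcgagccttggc
Cdk1: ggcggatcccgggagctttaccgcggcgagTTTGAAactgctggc
Mcm2: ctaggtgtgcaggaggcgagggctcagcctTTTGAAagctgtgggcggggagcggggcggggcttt

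Of 34 tested genes of the p53 pathway and of inhibitors of cyclin-dependent kinases, 15 were called higher and 8 lower (median 0.62), and with library size alone 24 were called higher. Cdkn1a, the kinase inhibitor p21, rose from 25.7, 79.8, 39.4 and 37.7 to 219.6, 189, 149 and 116 CPM (log2 fold change 1.88, SE 0.42, adjusted p = 0.000330). Cdkn2a, which encodes p16 and ARF and is widely read as a mark of senescent cells, rose from 0.305, 0.995, 0.400 and 0.588 to 4.71, 1.68, 2.54 and 0.517 CPM (log2 fold change 1.97, SE 0.51, adjusted p = 0.00124). Cdkn1c (p57), which holds differentiating myoblasts out of the cycle, rose from 25.6 ± 17.8 to 194 ± 78.2 CPM (2.92). Trp53 itself rose by 0.80 (adjusted p = 0.000220), and Mdm2, its ubiquitin ligase and target, fell by 0.98 on the log2 scale (adjusted p = 5.78e-08). Pmaip1, the pro-apoptotic target Noxa, had the largest rise (0.492 ± 0.507 to 13.2 ± 6.85 CPM, 4.62) and Perp the largest fall (1.01 ± 0.365 to 0.0351 ± 0.0460 CPM, -4.50). Cdkn2a had a log2 fold change of 1.38 and Perp one of -5.59 without day 7 library 7. Cdkn1c had a log2 fold change of 3.53 and Pmaip1 one of 5.78 without uninjured library 7.

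Of 29 tested vessel genes 10 were called higher and 5 lower, with a median of 0.02, below that of all genes, that turned negative without day 7 library 7 (-0.02) and in limma voom (-0.01). With library size alone 23 of them were called higher and 3 lower. The endothelial junction genes Pecam1 (0.64) and Cdh5 (0.55) rose slightly, as did Plvap (1.00), while Kdr, the main receptor for vascular growth factor, fell by 0.70 (adjusted p = 0.0480). The growth factor genes of the fibre fell. Vegfa went from 323, 195, 264 and 290.4 to 48.7, 44.4, 105 and 61.9 CPM (log2 fold change -2.04, SE 0.35, adjusted p = 9.34e-06), and Vegfb from 146, 90.9, 101 and 113 to 15.2, 32.2, 45.5 and 30.9 CPM (log2 fold change -1.86, SE 0.26, adjusted p = 2.35e-07). Apln (apelin), a peptide of sprouting vessels, rose from 1.75, 1.55, 1.28 and 1.99 to 66.3, 12.4, 16.9 and 25.1 CPM (log2 fold change 4.18, SE 0.60, adjusted p = 8.87e-07), the largest rise of the list. Of 14 tested mural and smooth muscle genes, 7 were called higher and 5 lower, and none was called lower with library size alone. Acta2, the actin of smooth muscle and of myofibroblasts, rose by 2.86 and Pdgfrb of pericytes by 2.24, while Rgs5 (-0.67) and Myh11 (-0.84), genes of mature mural cells, and the potassium channel gene Kcnj8 (-1.31) fell. Actg2, a smooth muscle actin, had the largest rise, to only 2.67 ± 1.79 CPM (5.09). Red cell genes were lower in 6 of 7 tested members. Hba-a1 (-2.68), Hbb-bs (-3.16) and Alas2 (-2.39), of haemoglobin and haem synthesis, were among them, and the uninjured levels of Hbb-bs, at 161, 39.9, 38 and 256 CPM, were themselves uneven. The band 3 gene Slc4a1 had 22 counts before and none after, at least 10.3-fold lower against the floor of 3 counts. Globin copies are near identical, so their split is uncertain. Ermap was the member that rose (3.02). Apln had a log2 fold change of 3.44 without day 7 library 7. Ermap had a log2 fold change of 4.16 without uninjured library 6. Actg2 had a log2 fold change of 6.12 without uninjured library 8. Alas2 had a log2 fold change of -1.80, Hba-a1 one of -1.95 and Hbb-bs one of -2.52 without uninjured library 9. Alas2 was not called without day 7 libraries 7 or 9 or uninjured libraries 6 or 9 (adjusted p = 0.0524 to 0.104). Cdh5 was not called without day 7 library 10 (adjusted p = 0.0775). Kdr was not called without day 7 libraries 7, 8 or 9 or uninjured libraries 6 or 8 (adjusted p = 0.0730 to 0.149). Rgs5 was not called without day 7 library 7 (adjusted p = 0.0560). Alas2, Cdh5, Kdr, Pecam1 and Rgs5 were not called without day 7 libraries 7 and 10 together (adjusted p = 0.148, 0.238, 0.0867, 0.0710 and 0.0820). Alas2 and Kcnj8 were not called with library size alone (adjusted p = 0.144 and 0.378). Alas2 and Kdr were not called with no filter on low counts (adjusted p = 0.0557 and 0.107). Kdr was not called with RLE size factors or in DESeq2 (adjusted p = 0.0836 and 0.0721). Alas2 was not called in limma voom (adjusted p = 0.0872). Rgs5 was not called when only the groups compared were fitted (adjusted p = 0.0505).

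At the nerve contact, receptor subunits of young or denervated fibres rose. Chrna1, the alpha subunit of the acetylcholine receptor, went from 22.9, 123, 34.3 and 26.2 to 299, 274, 279 and 238 CPM (log2 fold change 2.40, SE 0.40, adjusted p = 8.29e-06), and the fetal subunit Chrng from 3.97, 37.7, 7.68 and 0.226 to 75.5, 61.6, 45.0 and 54.7 CPM (log2 fold change 2.23, SE 0.73, adjusted p = 0.00965), again with uninjured library 7 high. The adult subunit Chrne was at 12.2 ± 2.14 and 7.68 ± 3.76 CPM (adjusted p = 0.204) and the organising kinase Musk at 16.6 ± 1.36 and 19.4 ± 6.03 CPM (adjusted p = 0.695), neither called. The adult sodium channel gene Scn4a fell from 935 ± 42.8 to 159 ± 84.0 CPM (-2.56). In all, 10 of 20 tested junction genes were called higher and 3 lower. Nrg1 (neuregulin 1), a nerve-derived growth factor, had the largest rise, with 2 counts before and 167 after, a ratio of 59.4 (exact 95% interval 16.2 to 494). Schwann cell genes were called higher in 5 of 14 and lower in 2 (median 0.42). Among those that fell was the myelin gene Mal, with 61 counts before and 3 after, a ratio of 28.6 (exact 95% interval 9.34 to 142.5). Egr2, a factor of myelinating Schwann cells that immune cells also use, had the largest rise of that list (3.76). Mbp (adjusted p = 0.222), Sox10 (adjusted p = 0.418) and Ngfr (adjusted p = 0.50) were not called. Chrna1 had a log2 fold change of 3.29 and Chrng one of 3.97 without uninjured library 7. Chrng was not called when only the groups compared were fitted (adjusted p = 0.0519). Musk and Ngfr were called with library size alone (adjusted p = 0.0239 and 0.00604).

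Fat and tendon cells gave small signals. Plin1, which coats fat droplets, rose from 1.22, 0.239, 1.44 and 0.181 to 0.0645, 45.1, 9.60 and 3.20 CPM (log2 fold change 4.39, SE 1.36, adjusted p = 0.00672), with library 8 highest and library 7 lowest, while Adipoq (adjusted p = 0.0541) and Lep (adjusted p = 0.112) were not called. In all 6 of 12 adipocyte genes were called higher and none lower. Of 10 tested tenocyte genes, 6 were called higher and none lower, with Tnmd (tenomodulin) at 1.91 ± 1.35 CPM before and 10.5 ± 4.95 CPM after (2.47), Mkx at 0.243 ± 0.212 and 1.51 ± 0.673 CPM (2.51) and Scx at 13.5 ± 4.87 and 22.7 ± 4.69 CPM (0.75). Plin1 had a log2 fold change of 2.61 without day 7 library 8. Mkx had a log2 fold change of 3.19 without uninjured library 7. Plin1 was not called without day 7 library 8 (adjusted p = 0.0825). Scx was not called without day 7 library 9 or uninjured libraries 6 or 9 (adjusted p = 0.0541 to 0.0859). Adipoq was called without day 7 libraries 7 or 10 or uninjured library 8 (adjusted p = 0.0250 to 0.0467). Adipoq was called without day 7 libraries 7 and 10 together (adjusted p = 0.0191). Lep was called without uninjured library 8 (adjusted p = 0.0326). Plin1 was not called in limma voom (adjusted p = 0.297). Adipoq and Lep were called with library size alone (adjusted p = 0.0103 and 0.0315). Adipoq was called with RLE size factors or in DESeq2 or with a filter of 1 CPM (adjusted p = 0.0477, 0.0229 and 0.0477).

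Growth factor and imprinted genes rose in 18 of 21 tested members, with none called lower (median 3.16). Igf1, which macrophages and progenitors supply to growing fibres, went from 6.64, 5.53, 8.96 and 3.66 to 94.4, 188, 103 and 242 CPM (log2 fold change 4.68, SE 0.34, adjusted p = 3.63e-12). Igf2 rose from 1.91, 11.2, 2.96 and 1.22 to 37.3, 81.8, 70.9 and 80.1 CPM (log2 fold change 3.91, SE 0.47, adjusted p = 3.94e-08), and H19, the imprinted non-coding RNA next to it, from 286, 1084, 267 and 195 to 2485, 5262, 6634 and 5411 CPM (log2 fold change 3.43, SE 0.40, adjusted p = 1.07e-08). Dlk1, an imprinted membrane protein of regenerating muscle, rose most (0.200 ± 0.158 to 12.6 ± 4.03 CPM, 5.90). Igfbp5, a binding protein of these growth factors, was at 1360.2 ± 454 and 1083 ± 387 CPM (adjusted p = 0.457). Immediate early genes were called higher in 14 of 22 and lower in 4, with Fos at 1.53, Egr1 at 1.82, Atf3 at 1.56, Myc at 2.15 and Egr3 the highest at 4.22, while the nuclear receptor gene Nr4a1 fell from 122 ± 24.0 to 23.8 ± 8.0 CPM (-2.36). Fos had a log2 fold change of 0.92 without day 7 library 7. H19 had a log2 fold change of 4.31 and Igf2 one of 5.09 without uninjured library 7. Myc had a log2 fold change of 2.79 without uninjured library 9. Atf3 was not called without day 7 libraries 7, 8 or 9 or uninjured libraries 6, 7 or 9 (adjusted p = 0.0510 to 0.109). Atf3 was not called without day 7 libraries 7 and 10 together (adjusted p = 0.0827). Atf3 was not called with no filter on low counts (adjusted p = 0.0859).

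Genes of protein breakdown in the fibre fell, with 16 of 24 tested atrophy and autophagy genes called lower and 2 higher (median -1.30). The muscle ubiquitin ligase genes Fbxo32 (atrogin 1) and Trim63 (MuRF1), which tag fibre proteins for removal, went from 682, 912, 710.4 and 813 to 17.3, 52.1, 47.6 and 93.2 CPM (log2 fold change -3.89, SE 0.49, adjusted p = 7.31e-08) and from 258, 335, 279 and 428 to 21.6, 39.7, 63.9 and 56.1 CPM (log2 fold change -2.84, SE 0.44, adjusted p = 2.33e-06). Sqstm1, the autophagy receptor p62, fell by 2.40 on the log2 scale. Foxo3, a transcription factor that drives these ligases, was at 37.7 ± 1.83 and 52.8 ± 21.6 CPM and was not called (adjusted p = 0.100), and Lamp2 of lysosomes had the largest rise (1.11). Of 38 tested proteasome genes 32 were called lower and 4 higher (median -0.94). Psma1 of the core fell by 0.77 on the log2 scale and Psmd1 of the regulatory cap by 1.06, Psmb7 fell most (-1.73), and those that rose were the immunoproteasome subunits Psmb8, Psmb9 (2.16) and Psmb10 (0.93) and the testis subunit Psma8, which had 1 count before and 28 after. Most ribosomal protein genes were not called, with 12 of 77 higher and 3 lower and a median of 0.09, which turned negative without day 7 library 7 (-0.02) and without library 9 (-0.0040). Their share of all counts, which rests on library size, was 0.955% to 1.18% before and 1.41% to 3.13% after, without overlap. With library size alone, which adds about 1 to each log2 fold change, 4 proteasome genes were called lower and 8 higher, with a median of 0.09. On the same scale 66 ribosomal protein genes were called higher and 1 lower, with a median of 1.13, and 20 were called higher with RLE size factors. Foxo3 was called without day 7 libraries 7 or 9 (adjusted p = 0.0465 to 0.0486). Foxo3 was called with library size alone or in DESeq2 (adjusted p = 9.14e-06 and 0.0489).

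The circadian clock list fell in 15 of 19 tested members, with 1 called higher (median -1.36), and in 6 with library size alone. Arntl, which encodes the activator BMAL1, went from 52.3, 45.7, 51.4 and 44.3 to 18.6, 11.6, 16.0 and 15.5 CPM (log2 fold change -1.65, SE 0.27, adjusted p = 4.75e-06). Nr1d1 (REV-ERB alpha), which represses Arntl, went from 168, 197, 226 and 199 to 16.2, 39.9, 39.9 and 57.5 CPM (log2 fold change -2.36, SE 0.36, adjusted p = 1.68e-06), and Dbp, an output factor of the clock, from 41.4 ± 15.5 to 11.5 ± 6.13 CPM (-1.86). Npas2 rose (2.07), and Per2 was not called (0.38, adjusted p = 0.279). In a running clock the levels of Arntl and Nr1d1 both change with the time of day. The labels give no time of collection, so its part was not tested. Of 25 tested cholesterol genes 10 were called higher and 4 lower. Of the synthesis enzyme genes, Sqle rose by 1.46 and Fdft1 fell from 79.2 ± 11.4 to 13.4 ± 2.31 CPM (-2.56). The exporters of macrophages rose most, with Abca1 from 17.5, 23.3, 18.4 and 11.1 to 134, 226, 149 and 177 CPM (log2 fold change 3.29, SE 0.20, adjusted p = 4.78e-14) and Abcg1 by 4.34. Of 17 tested iron and haem genes 8 were called higher and 5 lower. Hmox1, the haem-degrading enzyme, went from 7.09, 7.64, 5.84 and 8.09 to 225, 36.8, 40.7 and 25.8 CPM (log2 fold change 3.51, SE 0.69, adjusted p = 8.79e-05), highest in library 7, and Slc11a1, the iron transporter of phagosomes, rose by 3.56. The iron exporter gene Slc40a1 (-1.75) and the ferritin chain Fth1 (-1.06) fell, while the transferrin receptor gene Tfrc was at 172, 118, 179 and 141 and 88.6, 206, 289 and 294 CPM (adjusted p = 0.253). Hmox1 had a log2 fold change of 2.25 without day 7 library 7. Abcg1 had a log2 fold change of 4.96 without uninjured library 7. Sqle was not called without day 7 libraries 7 and 10 together (adjusted p = 0.103). Arntl and Fth1 were not called with library size alone (adjusted p = 0.0586 and 0.867). Per2 and Tfrc were called with library size alone (adjusted p = 0.000214 and 0.00110).

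**Figure D4:**
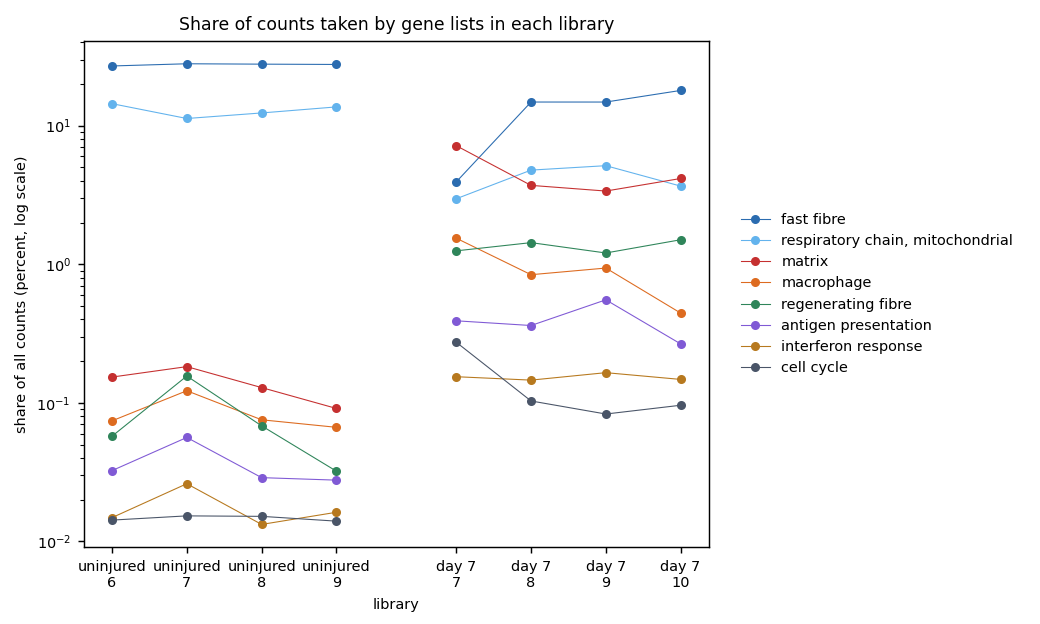
Share of all counts (y axis, percent on a log scale) taken by 8 gene lists in each of the 8 libraries (x axis). Fast fibre and mitochondrial shares are lower in all 4 day 7 libraries than in all 4 uninjured libraries, the other 6 are higher, and the fast fibre share of day 7 library 7 (3.93%) lies below those of the other 3.

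The same injury was followed in young muscle, with 4 young vehicle libraries at day 7 and 4 young uninjured ones, none of which enter the old comparison. Some of these libraries stood apart. Young uninjured libraries 1 and 3 gave 1.57% and 1.17% of their counts to atrophy and autophagy genes, against 0.702% and 0.593% in libraries 2 and 4 and 0.471% to 0.541% in old uninjured muscle, and 0.171% and 0.170% to clock genes, against 0.116% and 0.112%. In young day 7 library 7 other lists lay closer to uninjured muscle than in the other 3, with fast fibre genes at 26.7% of its counts (17.5% to 20.9% in the others, 26.2% to 31.4% in young uninjured muscle), matrix genes at 1.84% (3.23% to 4.00% in the others) and macrophage genes at 0.266% (0.512% to 0.605%). Of the genes tested, 10413 were called in young muscle (60.8%), and 8333 were called in the same direction at both ages. The difference between the 2 responses was tested as an interaction, old minus young, and 1319 genes were called (7.7%), 552 with a higher response in old muscle (3.22%) and 767 with a lower one (4.48%). Higher responses made up 41.8% of these calls with TMM scaling, 54.0% with library size alone, 55.2% with RLE size factors and 53.1% in DESeq2. The count itself was unstable. It fell to 62 without young uninjured libraries 1 and 3 together, which also leaves that group with 2 libraries, to 343 without day 7 libraries 7 and 10, to 173 when only these 4 groups were fitted, and to 573, 587, 740, 801 and 852 without young uninjured library 3, young uninjured library 1, young day 7 library 7, old uninjured library 6 and old uninjured library 8. It rose to 2152 without old day 7 library 9.

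Of the regenerating fibre genes, 7 of 16 had a called lower response in old muscle and none a higher one, against 4.48% of all genes tested, and this count ranged from 1 without old uninjured library 7 to 8 with 1 library left out. It was 3 without young uninjured library 1 or 3 or with no filter on low counts, 1 in limma voom, and 0 without young uninjured libraries 1 and 3 together, without old day 7 libraries 7 and 10 or with only the groups compared. Their median log2 fold change was 2.97 in old and 5.26 in young muscle. Myh3 rose by 3.49 in old and by 9.33 in young muscle (difference -5.84, SE 1.49, adjusted p = 0.0186). The mean day 7 level was not lower in old mice, at 1845 ± 551 CPM against 1294 ± 611 CPM in young mice. The uninjured level was 164 ± 185 CPM in old and 1.97 ± 0.944 CPM in young mice. By these means the difference lay in the uninjured level and not at day 7. The same held for Mymk (difference -5.50, SE 1.49, adjusted p = 0.0251, uninjured 18.4 CPM in old and 0.210 CPM in young). Old uninjured library 9 lay within the young uninjured range for Myh3 (1.04 against 0.965 to 2.85 CPM) and Mymk (0.452 against 0 to 0.482 CPM). The other old uninjured libraries lay above that range for both genes. Of the slow fibre list, 4 of 15 had a called lower response and none a higher one, with medians of 2.05 in old and 5.26 in young muscle, and 2 were called without old day 7 library 7 or 10, old uninjured library 7, young day 7 library 7 or young uninjured library 1 or 3, and 0 without the last 2 together. Among the 4 were Tnni1 (-5.82, SE 1.64, adjusted p = 0.0299, uninjured 29.5 and 0.460 CPM) and Tnnt1, the slow troponin T (-5.03, SE 1.56, adjusted p = 0.0463, uninjured 17.7 and 0.456 CPM). For these too, old uninjured library 9 lay within the young uninjured range and the other old uninjured libraries above it. Its values were 0.136 against 0 to 0.979 CPM for Tnni1 and 0.181 against 0.0920 to 0.979 CPM for Tnnt1. St8sia2, which adds polysialic acid to the adhesion protein NCAM, had the largest value, whose size depends on the fit because no young uninjured library held a count (-6.88, SE 1.81, adjusted p = 0.0211, uninjured 1.53 and 0 CPM). Without young uninjured libraries 1 and 3 together the 5 genes named here had differences of -5.90, -4.47, -5.70, -4.57 and -6.92 in that order and no call (adjusted p = 0.177 to 0.316). Myh3 had a difference of -4.76, Mymk one of -3.92, St8sia2 one of -5.93, Tnni1 one of -4.32 and Tnnt1 one of -3.29 without old uninjured library 7. Tnni1 had a difference of -6.48 and Tnnt1 one of -5.69 without young uninjured library 2. Mymk had a difference of -6.27 without young uninjured library 4. Myh3 was not called without old uninjured library 7 or young uninjured library 3 (adjusted p = 0.0505 to 0.0527). Mymk was not called without old uninjured library 7 or young uninjured libraries 1 or 3 (adjusted p = 0.0750 to 0.0845). St8sia2 was not called without young uninjured libraries 1 or 3 (adjusted p = 0.0566 to 0.0585). Tnni1 was not called without old day 7 libraries 7 or 10 or old uninjured library 7 or young day 7 library 7 or young uninjured libraries 1 or 3 (adjusted p = 0.0506 to 0.0981). Tnnt1 lost its call in 13 of 16 fits that each left out 1 library, at adjusted p = 0.0508 to 0.184. It kept the call without old day 7 library 9 or old uninjured library 9 or young uninjured library 2. Myh3, Mymk, Tnni1 and Tnnt1 were not called without old day 7 libraries 7 and 10 together (adjusted p = 0.0947, 0.0957, 0.137 and 0.163). Myh3, Mymk, St8sia2, Tnni1 and Tnnt1 were not called in limma voom (adjusted p = 0.394, 0.274, 0.179, 0.411 and 0.360). Mymk, St8sia2, Tnni1 and Tnnt1 were not called with no filter on low counts (adjusted p = 0.0535, 0.0594, 0.0643 and 0.0999). Myh3, Mymk, St8sia2, Tnni1 and Tnnt1 were not called when only the groups compared were fitted (adjusted p = 0.0514, 0.0715, 0.0771, 0.0580 and 0.0749). Tnnt1 was not called with library size alone (adjusted p = 0.0561).

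Calls among metabolic genes were of lower responses in old muscle, and their number moved widely with the libraries fitted. Of 58 nuclear respiratory chain genes 20 had a called lower response and none a higher one, with medians of -1.55 in old and -0.47 in young muscle. Their share of counts in uninjured muscle was 1.39% to 1.74% in old and 0.736% to 1.24% in young mice. At day 7 their share was 0.793% to 1.59% in old and 1.13% to 1.53% in young mice. The 20 became 52 without old day 7 library 9, 34 without young day 7 library 4 and 32 without young uninjured library 4. They became 7, 11 and 9 without old day 7 library 7, 8 or 10, and 6, 12 and 10 without old uninjured library 6, 8 or 9. They became 11 without young day 7 library 6, 3 without young uninjured library 1 or 3 and 2 without young day 7 library 7. DESeq2 gave 33, limma voom 34 and the fit with no filter on low counts 11. Of 36 glycolysis genes 9 had a lower response and none a higher one, among them Pgam2 (-2.05, SE 0.52, adjusted p = 0.0151). The 9 became 15 without old day 7 library 9 or young uninjured library 2, 5 without old uninjured library 6, 2 without young uninjured library 1 or young day 7 library 7 and 3 without young uninjured library 3, and DESeq2 gave 14. Neither list had a call without young uninjured libraries 1 and 3 together, without old day 7 libraries 7 and 10 or with only the groups compared. Pgam2 was at 419.8, 1521, 487 and 1472 CPM in young uninjured libraries 1, 2, 3 and 4, low in 1 and 3. Vegfa fell by 2.04 on the log2 scale in old muscle, while its value in young muscle was -0.03 (difference -2.01, SE 0.48, adjusted p = 0.0121). Vegfb likewise had -1.86 in old and -0.52 in young muscle (difference -1.34, SE 0.35, adjusted p = 0.0193). Uninjured Vegfa stood at 323, 195, 264 and 290 CPM in old and 112, 162, 90.0 and 157 CPM in young muscle. At day 7 Vegfa was at 48.7, 44.4, 105 and 61.9 CPM in old and 92.8, 123, 115 and 178 CPM in young muscle. Part of its difference thus lay in the uninjured libraries. Uninjured Vegfb was at 146, 90.9, 101 and 113 CPM in old and 69.8, 101, 47.2 and 102 CPM in young muscle. Kcng4, first among the falls, fell by 8.53 in old muscle and had -4.04 in young muscle (difference -4.49, SE 1.12, adjusted p = 0.0158). Without young uninjured libraries 1 and 3 together the difference was -1.44 for Pgam2, -1.72 for Vegfa, -1.01 for Vegfb and -3.89 for Kcng4, none called (adjusted p = 0.131 to 0.224). Kcng4 had a difference of -7.68 without old day 7 library 9. Vegfb was not called without young day 7 library 7 or young uninjured libraries 1 or 3 (adjusted p = 0.0503 to 0.0588). Kcng4, Pgam2, Vegfa and Vegfb were not called without old day 7 libraries 7 and 10 together (adjusted p = 0.138, 0.0957, 0.0947 and 0.111). Pgam2 and Vegfb were not called when only the groups compared were fitted (adjusted p = 0.0949 and 0.100). Kcng4 was not called in limma voom (adjusted p = 0.0564).

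Among called protein-coding genes of at least 10 CPM in their highest group, the 6 largest higher responses were those of Pdk4, Shroom3, Ddit4, Lpin2, Hmox1 and Angptl4. For all 6 the mean uninjured level was higher in young than in old muscle. Pdk4, a kinase that holds back the use of glucose, fell by 2.18 in old muscle and had -6.61 in young muscle (difference 4.42, SE 0.84, adjusted p = 0.00328). Its level was 130.2, 258, 289 and 309.8 CPM in old uninjured muscle and 7092, 5639, 3911 and 3044 CPM in young uninjured libraries 1, 2, 3 and 4, and 54.4 ± 30.7 CPM in old and 50.5 ± 11.6 CPM in young mice at day 7. The ages thus lay apart in every uninjured library and together after injury. Pdk4 was the only one of the 6 called without young uninjured libraries 1 and 3 together (4.23, adjusted p = 0.0443).

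The lipid enzyme gene Lpin2 had 1.91 in old and -1.76 in young muscle (difference 3.67, SE 0.81, adjusted p = 0.00861), and its young uninjured libraries stood at 95.3, 10.3, 86.3 and 3.57 CPM against 4.86 ± 2.95 CPM in old muscle. Shroom3, a regulator of cell shape, had 1.84 and -2.14 (difference 3.97, SE 0.82, adjusted p = 0.00544), with 22.6, 5.78, 37.6 and 1.93 CPM in the young uninjured libraries and 1.52 ± 0.646 CPM in the old ones. For both genes the high values were those of young libraries 1 and 3. Hmox1 rose by 3.51 in old muscle, and its value in young muscle was -0.08 (difference 3.60, SE 0.91, adjusted p = 0.0183), with 94.5, 16.6, 39.3 and 9.46 CPM in the young uninjured libraries. Ddit4, a stress-induced inhibitor of the growth kinase mTORC1, had 0.69 and -3.15 (difference 3.85, SE 0.78, adjusted p = 0.00544), with 28.7, 23.7, 99.9 and 46.5 CPM in the young uninjured libraries and 5.61 ± 1.75 CPM in the old ones. Angptl4, an inhibitor of lipoprotein lipase, had 3.37 and -0.21 (difference 3.58, SE 0.90, adjusted p = 0.0160), with 13.5, 15.5, 8.09 and 15.6 CPM in the young uninjured libraries and 2.16 ± 1.19 CPM in the old ones. Its old log2 fold change was 2.57 without old day 7 library 7. Without young uninjured libraries 1 and 3 together the difference was 0.85 for Lpin2 (adjusted p = 0.506), 1.84 for Shroom3 (adjusted p = 0.249), 1.97 for Hmox1 (adjusted p = 0.347), 3.34 for Ddit4 (adjusted p = 0.0607) and 3.81 for Angptl4 (adjusted p = 0.0905). Angptl4 had a difference of 2.79 and Hmox1 one of 2.34 without old day 7 library 7. Hmox1 had a difference of 2.72 without young uninjured library 1. Ddit4 had a difference of 3.25 and Shroom3 one of 3.23 without young uninjured library 3. Angptl4 was not called without old day 7 library 7 (adjusted p = 0.0520). Hmox1 was not called without old day 7 library 7 or young uninjured library 1 (adjusted p = 0.0712 to 0.0748). Angptl4 and Hmox1 were not called without old day 7 libraries 7 and 10 together (adjusted p = 0.0747 and 0.108). Hmox1 and Lpin2 were not called in limma voom (adjusted p = 0.0602 and 0.0618). Hmox1 and Lpin2 were not called when only the groups compared were fitted (adjusted p = 0.0786 and 0.0742).

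Of 24 atrophy and autophagy genes, 8 had a called higher response in old muscle and none a lower one. Their share of counts at day 7 was 0.294% to 0.347% in old and 0.240% to 0.284% in young muscle, so that the ages were closer after injury than before it, where young libraries 1 and 3 were the highest. The 8 became 5 without young uninjured library 1 and 0 without libraries 1 and 3 together, and 4 with only the groups compared. Trim63 fell by 2.84 in old muscle and had -5.23 in young muscle (difference 2.39, SE 0.59, adjusted p = 0.0149), with 4447, 1532, 2874 and 742 CPM in the young uninjured libraries and 325 ± 76.0 CPM in the old ones. Without young libraries 1 and 3 its difference was 1.30 (adjusted p = 0.316). Trim63 was not called without young uninjured library 1 (adjusted p = 0.0563). Trim63 was not called when only the groups compared were fitted (adjusted p = 0.0637).

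**Figure D5:**
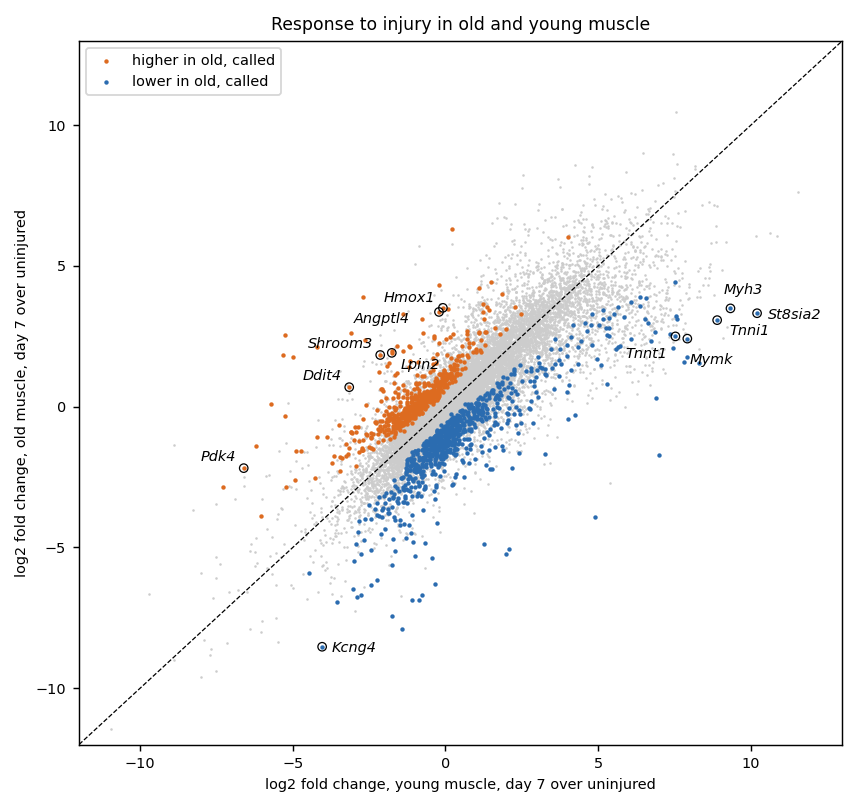
Log2 fold change of day 7 over uninjured in old muscle (y axis) against that in young muscle (x axis) for all genes tested (grey), with genes whose difference was called higher (orange) or lower (blue) in old muscle and the dashed line of equal response. Labelled are the 6 largest differences each way among genes of at least 10 CPM. Myh3 and Mymk of regenerating fibres and Tnni1 and Tnnt1 of the slow fibre list lie below that line.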

How the data were processed

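Bulk RNA-seq of mouse tibialis anterior muscle was analysed from the deposited table of read counts per gene. Per the labels' protocols, RNA was extracted with Qiagen miRNeasy kits and libraries were made and sequenced at Novogene. HISAT2 and the mouse genome build mm10 are named per the submitters' processing notes. The counting tool, annotation and strand handling, not given in the sources used here, leave overlapping, antisense and paralogous genes uncertain. Columns were matched to groups by name, and 0 sample columns of the table were left unused.

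The counts deposited by the authors were fitted as they stand. Genes were filtered with filterByExpr, libraries scaled with TMM and all 32 libraries of the 8 groups fitted together with edgeR 4.0.16 (glmQLFit, robust) in R 4.3.3, so that all groups share 1 estimate of the spread. The old comparison was tested as a contrast and the old minus young response as an interaction, 2-sided, with Benjamini-Hochberg adjustment. CPM values use TMM-scaled library sizes. Folds against a group with no counts use a floor of 3 counts over the group, and ratios of a few counts carry exact intervals. Both cover counting error only. Alternatives were library size alone, RLE size factors, DESeq2 1.42.0, limma 3.58.1 voom, other filters, only the groups compared, and each library left out.

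The comparison and the 38 gene lists were chosen with earlier results of these data known. Named genes were list leads, the largest called rise and fall of each list, the 8 largest rises and falls with no overlap and at least 30 CPM, the 6 largest old minus young values each way with at least 10 CPM, the 5 most abundant genes of each group and those with the widest range within a group. Pfkp, Pfkl, Pgam1, Pgam2, Eno1, Hk1, Cpt1a, Cox8a, Cox8b, Psmb9 and Psmb10 were chosen after their values were seen. Some genes that these rules name are not reported here. Promoter sequences came from a RefSeq table of build GRCm38.p6, matched by symbol.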

Additional observations from a re-analysis of the deposited data

Results flagged for a closer look

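Values are in CPM unless stated otherwise. Among the named genes, a library was singled out where its gap to the nearest other library of its group was a large part of the whole range of the group (Dixon's criterion at the 95% level). This was so in 44 of 491 groups of 4 libraries, where chance gives about 1 in 20 for groups that were not selected. The named genes were chosen in part for a wide range within a group and many share a library, so the 2 rates cannot be compared. Day 7 library 7 was the highest of its group for Acta2 (454), Arg1 (33.8), C5ar1 (49.4), Ccl2 (27.2), Cdk1 (31.9), Col3a1 (5309), Ctgf (79.6), Hmox1 (225), Inhba (16.4), Mmp12 (141), Myc (26.7), Pfkp (56.9), Pgam1 (136), Postn (2623), Spp1 (667), Timp1 (68.5) and Trp53 (48.0), with the others at 189.7 to 219 for Acta2. Day 7 library 7 was the lowest of its group for Acta1 (4059) and Ucp3 (4.03), with the others at 15018 to 16591 for Acta1. Day 7 library 9 was the highest of its group for Cox7a1 (47.1), Cox8b (59.9), Gapdh (310.4), Irf7 (77.7) and Kcng4 (0.702), with the others at 5.90 to 10.3 for Cox7a1. Uninjured library 6 was the highest of its group for Myh2 (508), Myh7 (0.839) and Myl2 (6.18), with the others at 8.76 to 17.5 for Myh2. Uninjured library 7 was the highest of its group for Cdkn1c (52.0), Chrna1 (123), Dcx (0.518), H19 (1084), Ifit1 (6.37), Igfbp5 (2037), Irf7 (10.6), Lgals3 (101), Rpl3 (90.0), Ucp2 (19.8) and mt-Atp8 (4.66), with the others at 14.2 to 19.8 for Cdkn1c. Uninjured library 7 was the lowest of its group for Ttn (14757), with the others at 17116 to 17459 for Ttn. Uninjured library 8 was the highest of its group for Lep (0.640), with the others at 0 to 0.0398 for Lep. Uninjured library 8 was the lowest of its group for Fbp2 (42.3), with the others at 50.8 to 52.2 for Fbp2. Uninjured library 9 was the highest of its group for Cxcl10 (5.33), Jchain (3.48) and Mmp12 (14.2), with the others at 0.305 to 0.995 for Cxcl10.

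Old and young responses to injury were compared here for 16 named genes, and all 16 were called by the test of the interaction. Those among the 6 largest differences each way were picked from genes already called, so 16 is no share of the named genes. On the log2 scale, old minus young, the response was lower in old muscle for St8sia2 (-6.88), Myh3 (-5.84), Tnni1 (-5.82), Mymk (-5.50), Tnnt1 (-5.03), Kcng4 (-4.49), Pgam2 (-2.05), Vegfa (-2.01) and Vegfb (-1.34). It was higher in old muscle for Pdk4 (4.42), Shroom3 (3.97), Ddit4 (3.85), Lpin2 (3.67), Hmox1 (3.60), Angptl4 (3.58) and Trim63 (2.39). Without young uninjured libraries 1 and 3 together only Pdk4 kept the call (adjusted p = 0.0443), and that fit leaves 2 libraries in the group. Pdk4, Shroom3, Ddit4 and Lpin2 kept the call in each fit that left out 1 library and without old day 7 libraries 7 and 10, and Lpin2 lost it in limma voom and when only the groups compared were fitted. The other 12 lost it in at least 1 of the fits with libraries left out.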

How the results depend on the processing

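No paired analysis was possible because the table's columns carry numbers that differ from the replicate numbers of the sample titles, and these numbers pair no samples between the groups. The count of 10995 genes called stayed within 1.5 times under each alternative run, from 9596 to 12530, and from 10234 to 10901 with any 1 of the 8 libraries left out. The split by direction did not, since library size alone gave 10770 genes called higher and 1760 lower. The old minus young count was 2030 in DESeq2 (1077 higher), 817 with no filter on low counts (349 higher and 468 lower), 173 with only the 4 groups fitted (68 and 105), 343 without day 7 libraries 7 and 10 (170 and 173) and 62 without young uninjured libraries 1 and 3 (16 and 46). With any 1 of the 16 libraries left out it ran from 573 to 2152, with 214 to 890 higher and 315 to 1361 lower. The cause of these moves was not tested, beyond the fewer samples in some of the fits. Over the named genes and alternatives, 3713 of the recomputed old values kept direction and side of the threshold, 99 lost the call, 45 gained it and 45 changed sign. For old minus young these were 319, 81, 0 and 0. The 3713 include the shares of the 3 promoter motifs described below, which are no fold changes. The log2 fold changes of the following named genes changed sign. With library size alone they were those of Aurka (0.10), Cd36 (0.30), Cd3e (0.90), Chrne (0.30), Foxp3 (0.97), Igfbp5 (0.63), Kdr (0.30), Krt10 (0.62), Mbp (0.65), Mdm2 (0.0332), Myf6 (0.21), Myh1 (0.75), Myh11 (0.14), Myh2 (0.56), Rgs5 (0.30) and Sox10 (0.30). Sign also changed in limma voom for Calcr (-0.57), Lars2 (-0.39), Myh2 (1.34) and Myl2 (0.57), with RLE size factors for Cd3e (0.0187) and Foxp3 (0.0645), in DESeq2 for Cd3e (0.0184) and Foxp3 (0.0656) and without day 7 libraries 7 and 10 for Cd3e (0.43), Foxp3 (0.0549), Krt10 (0.00171) and Myh2 (0.0400). With 1 library left out at a time the values spanned 0 for Calcr (-0.60 to 0.54), Cd3e (-0.32 to 0.14), Foxp3 (-0.26 to 0.13), Lars2 (-0.25 to 0.70), Myh1 (-0.59 to 0.15), Myh2 (-1.16 to 2.94), Myl2 (-3.31 to 5.15) and Sox10 (-1.55 to 0.13). Medians of lists that changed sign were that of B and plasma cell with a filter of 1 CPM in 4 libraries (-0.0236) and with only the groups compared (-0.00725), that of endothelial and vessel growth in limma voom (-0.0124) and without day 7 libraries 7 and 10 (-0.0442), that of epidermis with library size alone (0.62) and with no filter (0) and that of proteasome with library size alone (0.0861). With 1 library left out at a time the median spanned 0 for endothelial and vessel growth (-0.0246 to 0.18) and ribosomal protein (-0.0218 to 0.23). The shares of list members with each of the 3 promoter motifs stayed within their exact 95% binomial intervals when the window was the 100 bases before the start. That window lies inside the 250 bases and the intervals rest on 29 or 32 members, so this check is weak. Over all tested genes the shares fell from 3.38% to 1.26% for the interferon element. They fell from 13.2% to 4.22% for TTTGAA and from 39.6% to 25.2% for CCAAT. The alternatives without day 7 libraries 7 and 10 and without young uninjured libraries 1 and 3, and the list values under each alternative, were chosen after the data were seen. Depth and the spread between libraries limited precision, with a median 95% interval half-width of 0.60 on the log2 scale, and genes at a few counts have wider ones.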

Other observations

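Taking protein-coding genes at 30 CPM or more on average, the widest ratios of highest to lowest day 7 library were those of Pf4, Lars2, Car3, Pvalb, Scd1 and Mmp12. Pf4, a chemokine of platelets that some macrophages also make, stood at 104, 13.2, 23.0 and 0.611 CPM in day 7 libraries 7, 8, 9 and 10 and 1.83, 2.91, 1.44 and 0.678 CPM in uninjured muscle. The high value was that of library 7 and the lowest, within the uninjured range, that of library 10. Lars2, the mitochondrial leucyl-tRNA synthetase, was at 714, 1170.3, 829 and 45.4 CPM at day 7 and 566, 1247, 392 and 319 CPM before, with the low value in library 10. Car3, the carbonic anhydrase of muscle and fat, was even before injury at 4195, 4436, 4447 and 4496 CPM and spread at day 7, at 36.4, 655, 588 and 245 CPM. Scd1, the desaturase that makes monounsaturated fatty acids, was at 34.7, 581, 175 and 173 CPM at day 7 and 20.8, 18.4, 35.5 and 9.40 CPM before. Its highest library was 8, which was also the highest for the fat droplet gene Plin1. In the uninjured libraries the widest ratios were those of Myh3, Myh2 and Tnnt2, with values given above. Pf4 had a log2 fold change of 2.82 without day 7 library 7. Scd1 had a log2 fold change of 2.61 without day 7 library 8. Pf4 was not called in limma voom (adjusted p = 0.0527).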
